A study of Mus musculus with 10 samples.

Results

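The unfolded protein response and the chaperones of the endoplasmic reticulum (ER) were examined in hematopoietic stem cells (HSCs) with and without the transcriptional regulator CITED2. The 40 genes were taken by symbol from a list of ER chaperones, folding enzymes, stress sensors, degradation factors and translocon subunits, and all 40 were found among the 26146 genes of the count table. RNA was sequenced from sorted HSCs of C57BL/6J mice aged 8 to 12 weeks, with 1 library per mouse. The paper's sequencing methods do not give the gate. Elsewhere the paper gates bone marrow HSCs as LSKCD48-CD150+ cells, in some panels also as Flt3-CD34-. The 5 CTL mice, labelled wildtype, carried 2 floxed Cited2 alleles (Cited2 fl/fl) and no Cre. The 5 CKO mice, labelled Cited2 KO, carried the same floxed alleles with Vav-iCre, which is active throughout the hematopoietic system from shortly after HSCs emerge, so the deletion was neither confined to HSCs nor recent. Library totals ranged from 3058690 to 4548795 counts in the deposited table, far fewer than the reads sequenced per sample by the methods, and what removed the others is not given in the sources used here.

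The ER folds secreted and membrane proteins, and its chaperones keep unfolded chains soluble until they mature or are sent out for degradation. When unfolded chains accumulate, 3 sensors in the ER membrane (IRE1, PERK and ATF6) start the unfolded protein response, which raises the folding capacity, slows translation and, if unresolved, turns toward cell death. HSCs are known for a low rate of protein synthesis and for sensitivity to a faulty protein supply, and the response is studied in them for that reason.

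Many of these genes are induced through short promoter elements, shown here for the members that held one. The ER stress response element (ERSE) is the half-site CCAAT and the half-site CCACG with 9 bases between them, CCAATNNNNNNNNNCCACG, and it is read by ATF6 together with NF-Y. It was searched on both strands in the RefSeq promoter windows of GRCm38.p6, which run from 250 bases before to 50 bases after each start site. Of 32851 such windows 39 (0.119%) held an ERSE, and the 37 genes they belong to included 9 of the 34 members with a window. The lines below give each ERSE of these 9 genes with up to 20 flanking bases on each side, 5′ to 3′ on the strand of the gene, and capitals mark the half-sites, which read CGTGG and then ATTGG where the element lies on the opposite strand.
Hspa5, chr2:34772005-34772063, + strand: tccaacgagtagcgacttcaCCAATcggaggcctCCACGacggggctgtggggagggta
Hsp90b1, chr10:86705618-86705676, - strand: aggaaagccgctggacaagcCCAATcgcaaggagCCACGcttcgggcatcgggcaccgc
Hsp90b1, chr10:86705513-86705571, - strand: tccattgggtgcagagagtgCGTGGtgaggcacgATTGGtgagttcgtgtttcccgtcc
Dnajc3, chr14:118937807-118937865, + strand: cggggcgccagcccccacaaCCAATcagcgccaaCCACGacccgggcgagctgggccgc
Creld2, chr15:88819500-88819558, + strand: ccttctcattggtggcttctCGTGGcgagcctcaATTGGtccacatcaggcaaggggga
Calr, chr8:84847055-84847113, - strand: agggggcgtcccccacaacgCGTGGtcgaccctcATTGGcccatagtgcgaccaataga
Canx, chr11:50325780-50325838, - strand: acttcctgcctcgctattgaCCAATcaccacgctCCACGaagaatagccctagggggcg
Pdia6, chr12:17266471-17266529, + strand: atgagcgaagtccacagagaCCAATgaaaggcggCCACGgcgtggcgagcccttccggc
Syvn1, chr19:6046512-6046570, + strand: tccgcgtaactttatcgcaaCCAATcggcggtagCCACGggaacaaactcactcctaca
Derl3, chr10:75893222-75893280, + strand: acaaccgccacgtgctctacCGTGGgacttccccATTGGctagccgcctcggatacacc

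The first bases of these elements lay between 212 and 44 bases before the start site, and only the Hsp90b1 window held 2 of them. The related ERSE-II, the half-site ATTGG followed after 1 base by the half-site CCACG, was in 12 of all windows (0.0365%) and in those of Herpud1 and Dnajb11, neither of which held an ERSE. The UPRE, TGACGTG, was in 2.01% of all windows and in 1 member, Hspa5. The CARE element bound by ATF4 with C/EBP factors, TGATGNAA, was in 3.97% of all windows and in 4 of the 34 members (Trib3, Chac1, Asns and Herpud1). All of these elements are shown, with the capitals marking the fixed letters, because Hspa5, Trib3 and Chac1 return in the results. A CARE on the opposite strand reads TTNCATCA, and that of Trib3 begins 15 bases into the transcript.
Herpud1 (ERSE-II), chr8:94386357-94386407, + strand: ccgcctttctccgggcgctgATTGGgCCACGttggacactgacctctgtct
Dnajb11 (ERSE-II), chr16:22857841-22857870, + strand: ccccggcggcgATTGGcCCACGcctggctg
Hspa5 (UPRE), chr2:34771913-34771959, + strand: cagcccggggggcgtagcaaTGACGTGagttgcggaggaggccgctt
Herpud1 (CARE), chr8:94386297-94386344, + strand: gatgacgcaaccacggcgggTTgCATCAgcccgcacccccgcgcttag
Asns (CARE), chr6:7693210-7693252, - strand: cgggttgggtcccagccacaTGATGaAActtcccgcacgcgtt
Chac1 (CARE), chr2:119351029-119351076, + strand: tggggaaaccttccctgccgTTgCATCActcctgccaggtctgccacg
Trib3 (CARE), chr2:152344028-152344057, - strand: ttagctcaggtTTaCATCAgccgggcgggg

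A match of letters describes the window and shows no binding. Windows for Hyou1, Manf, Atf6, Ppp1r15b, Derl1 and Sec61a1 were not analysed here.

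Before the genotypes were compared, the deletion and the identity of the cells were checked. Cited2 was at 163 ± 42.7 CPM (counts scaled to 1000000 of the normalized library total; SD, n = 5) in CTL libraries, and CKO 1, CKO 2, CKO 4 and CKO 5 had 3.80, 4.21, 5.00 and 8.30 CPM. In the library labelled CKO 3, Cited2 stood at 120.1 CPM, within the CTL range. This library was kept in its labelled group, so results are also given without it. Cited2 had a log2 fold change (CKO minus CTL) of -2.51 with all libraries (± 0.94 standard error, edgeR adjusted p = 0.328) and -4.92 without CKO 3. All 11 HSC markers examined (Mecom, Hlf, Procr and others) were expressed in every library. Their summed level was between 2523 and 2858 CPM in CTL and between 2274 and 2558 CPM in CKO libraries. Of plasma cells, which carry an expanded ER, the markers Mzb1 and Jchain were at most 2.13 and 8.41 CPM in any library, and Sdc1 was between 7.83 and 22.4 CPM. The list of 8 B and plasma cell markers summed to between 68.8 and 118 CPM in CTL and between 75.5 and 89.2 CPM in CKO libraries. Cd48, a marker that the paper's HSC gates select against, was higher in CKO libraries. Its log2 fold change was 1.18 (± 0.20 standard error, adjusted p = 0.0264 in edgeR's quasi-likelihood F test). P-values were adjusted over all tested genes after Benjamini and Hochberg, and the part of Cd48 in the values below was not tested. The other 5 markers of CD48+ and lymphoid-primed progenitors did not pass the test, and the list summed to between 521 and 614 CPM in CTL and between 531 and 620.3 CPM in CKO libraries. In bulk RNA, fewer cells of a type and less RNA per cell cannot be told apart.

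Expression of these genes ranged from among the highest to low levels in both CTL and CKO HSCs. Together the 40 genes took 0.628% ± 0.0350 of all counts in CTL libraries and 0.639% ± 0.0344 in CKO libraries (SD, n = 5 each). Per kilobase of gene length, Hspa5, which encodes the HSP70-type chaperone BiP, had the highest level, 193 ± 26.0 CPM per kb in CTL and 203 ± 21.6 in CKO libraries (SD, n = 5 each), above 99% of all tested genes. Hsp90b1, which encodes the HSP90-type chaperone GRP94, followed with 177 ± 11.4 and 192 ± 16.3 CPM per kb. These levels overlapped between Hspa5 and Hsp90b1 within each genotype. Pdia3, a disulfide isomerase that works with the lectin chaperones, had a mean level over the 10 libraries of 162 CPM per kb, Calr (calreticulin) 145, P4hb 133 and Canx (calnexin) 129.

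The 3 sensors were expressed at lower levels than most of the chaperones. Eif2ak3, which encodes PERK, had 5.70 CPM per kb over the 10 libraries, Ern1, which encodes IRE1, 7.57, and Atf6 7.63. The standard deviations of these 3 genes within a genotype, between 0.878 and 2.30 CPM per kb, were of the size of the differences between them. The transcription factors downstream stood higher, with 97.8 CPM per kb for Xbp1, which is spliced by IRE1, and 98.7 for Atf4, whose translation is favoured after PERK acts. Ddit3, which encodes the pro-apoptotic factor CHOP, had 35.9 CPM per kb. In the remaining roles the highest levels per length were those of Ppp1r15a (111 CPM per kb) and Asns (61.2) among the effectors of the integrated stress response, Herpud1 (81.6) and Derl1 (63.6) in ER-associated degradation, and Sec61b (112) above Sec61a1 (71.8) in the translocon. Hyou1, a nucleotide exchange factor of BiP, was an exception among the chaperones with 6.53 CPM per kb, below Ern1 and Atf6. At the lower end, Derl3, a degradation factor of secretory tissues, had between 2 and 14 counts per library, and Chac1, a glutathione-degrading enzyme induced by ATF4, at most 12. Gene counts hold total Xbp1 RNA, so splicing by IRE1, the cleavage of ATF6 and the activity of PERK were not measured here.

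The counts of the most densely read genes did not rise in proportion to the library total. In genes with fewer than 0.05 reads per base of length, the log2 count rose with the log2 library total at a median slope of 1.12 over the 10 libraries. The median slope was 0.70 in the 264 genes with 0.5 to 0.7 reads per base and 0.59 in the 140 genes above 0.7. Hspa5 had 0.769 reads per base and a slope of 0.36, and Hsp90b1 0.721 reads per base and a slope of 0.74. Of the 38 tested members 13 had at least 0.3 reads per base, as had 1322 of the 14165 tested genes. Where the slope is below 1, CPM falls as the library total rises, and the values of such genes between libraries are limited by it. How duplicate reads were treated is not given in the sources used here, and its part was not tested.

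**Figure D1:**
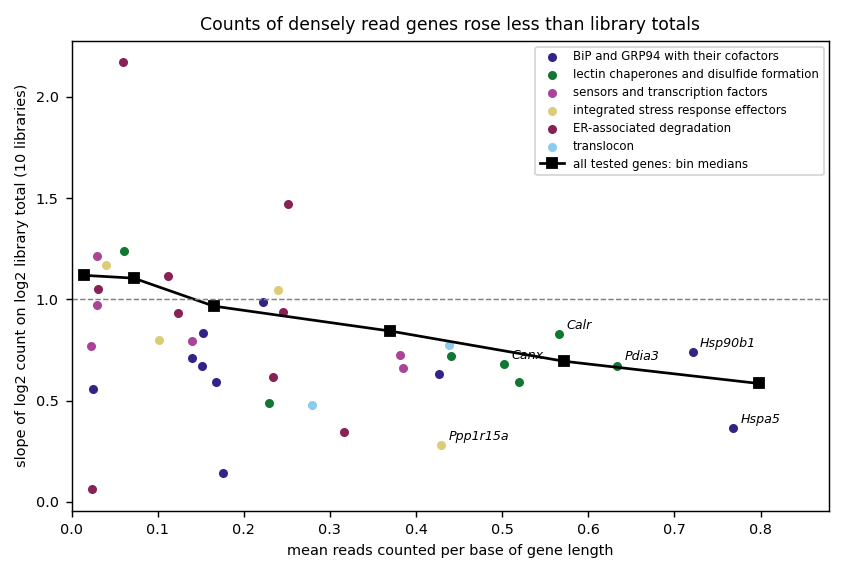
Slope of the log2 count on the log2 library total over the 10 libraries (y axis) against the mean number of reads per base of gene length (x axis). Coloured points are the 38 tested genes by role, black squares are the medians of all tested genes in 6 bins, falling from 1.12 to 0.59, and the dashed line marks proportional counts.

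Between the genotypes, none of the 40 genes was called. Of the 38 members that passed the filter on low counts, 0 had an adjusted p under 0.05 with a fold change above 20% in the same edgeR test, as against 0.226% of all 14165 genes tested. DESeq2's Wald test called 0 (2.43% of all genes) and limma-voom called 0 (0.198%). For 0 of the 38 the CPM of the 5 CKO libraries lay apart from those of the 5 CTL libraries, against 3.33% of all tested genes. At an unadjusted p under 0.05, 2 of the 38 remained, Trib3 and Ero1l, where 12.9% of all tested genes did. The median log2 fold change (CKO minus CTL) was 0.03 for the members and 0.01 for all tested genes, with 23 members fitted higher and 15 lower. With an offset for GC content and length of the genes 10 of the 38 turned direction, 6 to lower and 4 to higher, none past 0.12 on the log2 scale, and 21 were fitted higher. A fit with the library total as a covariate, chosen after seeing the data, gave the members a median log2 fold change of 0.08. Most intervals were narrow. For 32 of the 38 the 95% interval of the fold change lay within 1.5-fold in either direction, which held for 51.0% of all tested genes. For 10 it lay within 1.2-fold, as it did for 1381 of all 14165 tested genes. Counts of densely read genes are limited between libraries, as given above, and the part of this in the narrow intervals was not tested. Without the library labelled CKO 3 again 0 of 38 were called (0.292% of all genes), 0 were without overlap (4.99%), and Ern1, Trib3, Derl1 and Sec61a1 had an unadjusted p under 0.05 (11.4%).

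**Figure D2:**
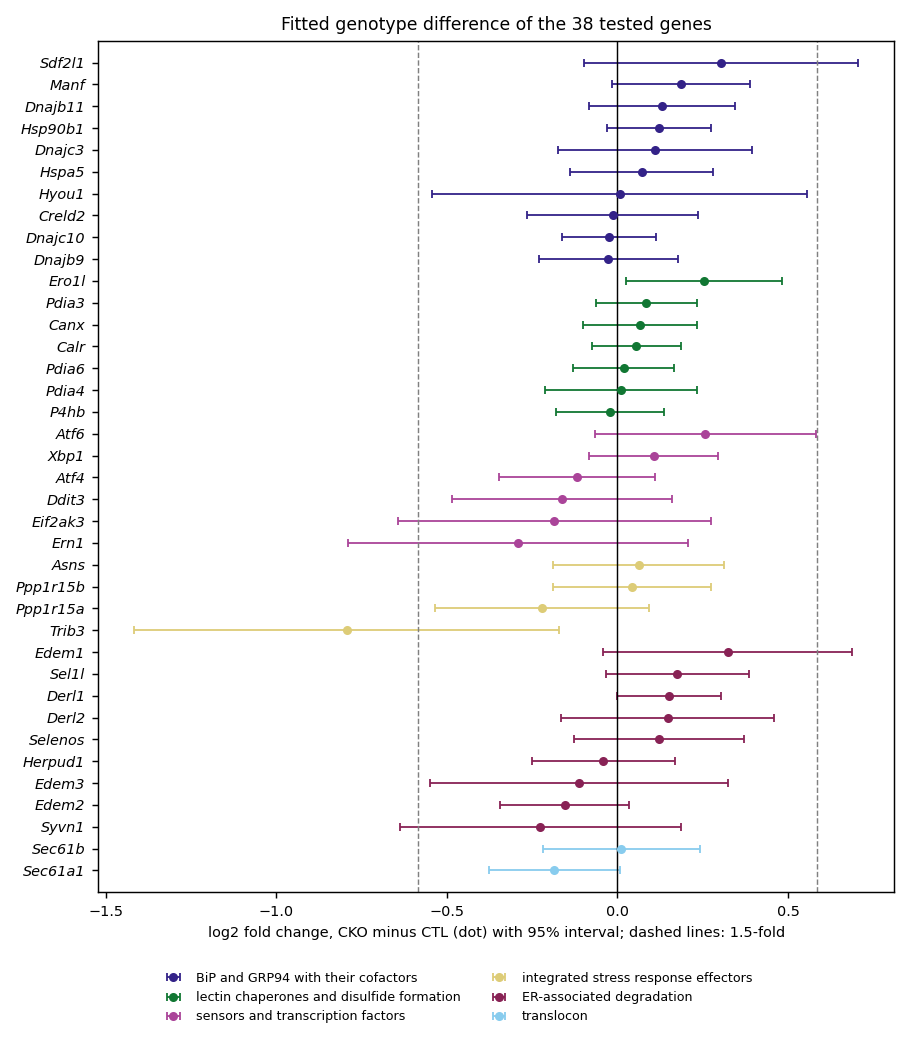
Fitted log2 fold change (x axis, CKO minus CTL) of the 38 tested genes, grouped by role, with 95% intervals from edgeR (n = 5 per genotype). Dashed lines mark 1.5-fold, and only the intervals of Trib3 and Ero1l leave out 0.

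Among BiP, GRP94 and their cofactors, 7 of 10 genes were fitted higher and 3 lower in CKO HSCs, with a median log2 fold change of 0.09, and with the offset 5 were higher and 5 lower. With the library total as a covariate all genes of this group but Dnajc10 (-0.02) were fitted higher. Hspa5 (chromosome 2, 34772090 to 34776529) had 578, 496, 569.7, 462 and 420.5 CPM in CTL 1 to CTL 5 and 482, 539.8, 572, 594 and 464 CPM in CKO 1 to CKO 5. The genotypes overlapped over most of their range, and the lowest value of all 10 was CTL 5. The log2 fold change was 0.07 (± 0.10 standard error, edgeR adjusted p = 0.808), with a 95% interval from 0.909-fold to 1.21-fold, and it turned to -0.01 with the offset. With the library total as a covariate it was 0.17 (edgeR adjusted p = 0.315). Hsp90b1 had 528, 462, 513, 482 and 457 CPM in the CTL libraries and 535, 549.7, 527, 583 and 460.4 CPM in the CKO libraries. Of its CKO libraries 3 were above the highest CTL library, and CKO 5 was near the lowest. Its log2 fold change was 0.12, -0.02 with the offset and 0.17 with the library total as a covariate (edgeR adjusted p = 0.251). Sdf2l1, a partner of BiP's DNAJ proteins, had the largest fitted difference of this group, a log2 fold change of 0.30 (± 0.19 standard error, edgeR adjusted p = 0.532). With the library total as a covariate Sdf2l1 had 0.44 (edgeR adjusted p = 0.292). It had 61.5, 40.7, 47.6, 32.4 and 43.1 CPM in CTL and 44.9, 45.02, 61.9, 75.0 and 50.7 CPM in CKO libraries, so that only CKO 3 and CKO 4 were above CTL 1. Manf, a secreted ER protein that binds BiP, was at 80.5 ± 8.24 and 91.4 ± 4.44 CPM, and Creld2 at 59.0 ± 7.85 and 58.3 ± 3.48 CPM (SD, n = 5 each). The DNAJ cofactors Dnajb9, Dnajb11, Dnajc3 and Dnajc10, which pass clients to BiP or reduce their disulfide bonds, had log2 fold changes between -0.03 and 0.13, and that of Hyou1 was 0.01.

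The lectin chaperones and disulfide enzymes had the narrowest intervals of the 6 role groups. Of these 7 genes, 6 were fitted higher and 1 lower in CKO HSCs (5 and 2 with the offset), and 6 had a 95% interval within 1.2-fold. Of those within 1.2-fold, Calr, Canx, Pdia3, Pdia6 and P4hb had between 0.441 and 0.633 reads per base, with slopes of 0.59 to 0.83. Calr had 257 to 297 CPM in CTL and 277 to 296 CPM in CKO libraries, so all CKO values lay inside the CTL range. Canx had 479 to 647 and 542 to 604 CPM, and Pdia3 378 to 475 and 412 to 471 CPM, again with the CKO range inside that of CTL. P4hb, which encodes protein disulfide isomerase itself, was at 341 ± 30.5 and 335 ± 22.1 CPM, and Pdia4 and Pdia6 differed by at most 0.02 in log2 fold change. The exception was Ero1l (chromosome 14, 45283087 to 45318572), the oxidase that recharges protein disulfide isomerase. It had 58.9, 70.0, 64.7, 61.7 and 58.9 CPM in CTL and 65.6, 75.7, 87.0, 77.0 and 69.4 CPM in CKO libraries. CKO 2, CKO 3 and CKO 4 were above every CTL library, while CKO 1 and CKO 5 fell within the CTL range. The log2 fold change was 0.25 (± 0.11 standard error, edgeR unadjusted p = 0.0321, adjusted p = 0.341), and 0.11 with the offset. With the library total as a covariate all 7 genes of the group were fitted higher, from 0.03 for P4hb to 0.26 for Ero1l.

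Of the 3 sensors, Atf6 was fitted higher and Ern1 and Eif2ak3 lower in CKO HSCs, each with overlap between the genotypes. Atf6 had 51.5, 64.2, 62.3, 38.8 and 42.9 CPM in CTL and 58.0, 62.1, 61.0, 55.9 and 72.8 CPM in CKO libraries, with a log2 fold change of 0.26 (± 0.15 standard error, edgeR adjusted p = 0.509). Only CKO 5 was above the CTL range. Ern1 had 27.8, 46.2, 25.6, 33.9 and 31.9 CPM in CTL and 18.1, 24.7, 42.1, 28.2 and 22.4 CPM in CKO libraries, a log2 fold change of -0.29 (± 0.23 standard error, edgeR adjusted p = 0.644). The library labelled CKO 3 was the highest CKO library, and without it the log2 fold change was -0.51 (edgeR adjusted p = 0.375). CTL 2 was the highest CTL library, and without it the log2 fold change was -0.14 (edgeR adjusted p = 0.888). Eif2ak3 was at 27.3 ± 6.23 and 23.9 ± 5.38 CPM (SD, n = 5 each).

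The end factors of the arms did not differ beyond the spread between libraries. Xbp1 (chromosome 11, 5520641 to 5525993) had 195, 186, 153, 167 and 146 CPM in CTL and 174, 184, 185, 201 and 169 CPM in CKO libraries. CKO 4 was the highest and CTL 5 the lowest of the 10. The log2 fold change was 0.11 (± 0.09 standard error, edgeR adjusted p = 0.661), with an interval from 0.944-fold to 1.23-fold. Atf4 (chromosome 15, 80255184 to 80257545) had 180.2, 165, 227, 139.7 and 175 CPM in CTL and 172, 166, 169, 149.6 and 159 CPM in CKO libraries, all 5 CKO values lying inside the CTL range. Its log2 fold change was -0.12 (± 0.11 standard error, edgeR adjusted p = 0.691), with an interval from -0.35 to 0.11 on the log2 scale, and with the offset it turned to 0.05. Ddit3 (chromosome 10, 127290793 to 127296291) had 38.8, 30.6, 32.3, 31.9 and 31.7 CPM in CTL and 35.2, 29.2, 32.1, 24.4 and 26.5 CPM in CKO libraries. CKO 2, CKO 4 and CKO 5 were below every CTL library and the other 2 were not. Its log2 fold change was -0.16 (± 0.15 standard error, edgeR adjusted p = 0.699).

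**Figure D3:**
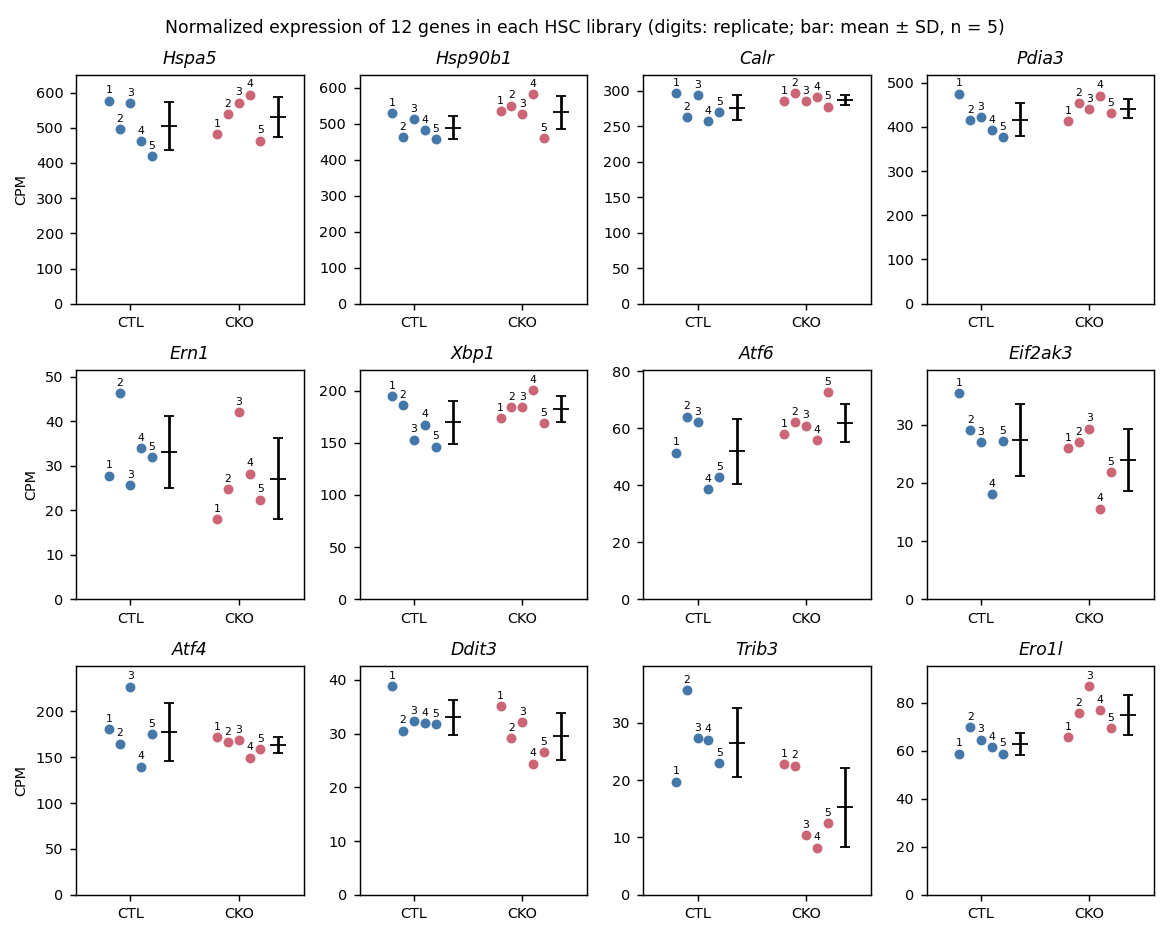
Normalized expression (y axis, CPM, starting at 0) of 12 genes in each CTL and CKO library. Points are libraries numbered by replicate and bars are mean ± SD (n = 5), and the genotypes overlap in all 12 panels.

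The lowest fitted value of the 38 was that of Trib3 (chromosome 2, 152337425 to 152344060), a pseudokinase induced by ATF4 and CHOP that restrains both. It had 19.7, 35.6, 27.3, 27.1 and 23.0 CPM in CTL and 22.8, 22.5, 10.4, 8.23 and 12.4 CPM in CKO libraries. CKO 3, CKO 4 and CKO 5 were below every CTL library, and CKO 1 and CKO 2 were above CTL 1. The log2 fold change was -0.79 (± 0.29 standard error, edgeR unadjusted p = 0.0162, adjusted p = 0.276), and the interval ran from 0.375-fold to 0.889-fold. Without the library labelled CKO 3 the log2 fold change was -0.69, and with the offset it was -0.55 (edgeR adjusted p = 0.778). Chac1 had too few counts to pass the filter of the main edgeR fit. The edgeR fit with no filter on low counts held all 40 members and called 0. It had 8, 7, 4, 1 and 12 counts in the CTL libraries and 1, 2, 0, 5 and 0 in the CKO libraries, 32 against 8 in all, with CKO 4 above CTL 3 and CTL 4, and CKO 2 above CTL 4. Of the other effectors, Asns (asparagine synthetase) was at 115 ± 16.2 and 121 ± 17.5 CPM, and its window held the same CARE letters as those of Trib3 and Chac1. Ppp1r15b, the constitutive regulatory subunit of the eIF2α phosphatase, was at 143 ± 23.7 and 147 ± 6.65 CPM. Its inducible counterpart Ppp1r15a was at 278 ± 42.2 and 238 ± 57.1 CPM, from 173 in CKO 1 to 343 in CTL 3 (SD, n = 5 each).

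In ER-associated degradation, which extracts misfolded proteins to the cytosol, 5 of the 9 tested genes were fitted higher and 4 lower. Edem1, a mannosidase-like lectin that selects clients, had the largest fitted difference, with 56.2, 68.0, 65.3, 109 and 93.9 CPM in CTL and 81.3, 104, 111, 111 and 84.6 CPM in CKO libraries. The CTL libraries themselves differed by more than the means of the genotypes did. The log2 fold change was 0.32 (± 0.17 standard error, edgeR adjusted p = 0.449). Its relatives Edem2 and Edem3 were fitted lower, at 145 ± 14.9 and 130.1 ± 9.79 CPM and at 42.8 ± 14.9 and 39.4 ± 6.28 CPM. Sel1l, the adaptor of the ubiquitin ligase, was at 168 ± 17.0 and 190.5 ± 24.8 CPM, and Syvn1, the ligase HRD1, at 30.7 ± 4.26 and 26.3 ± 6.45 CPM (SD, n = 5 each). The channel-forming Derl1 was at 189.6 ± 12.4 and 211 ± 15.3 CPM, with only CKO 1, CKO 2 and CKO 5 above the CTL range. Derl2, another channel protein, was at 109 ± 14.9 and 120.5 ± 26.8 CPM, Selenos, which links the extraction complex to the membrane, at 71.7 ± 8.67 and 77.9 ± 9.53 CPM, and Herpud1 at 155 ± 14.1 and 150.5 ± 20.6 CPM. Derl3, which did not pass the filter on low counts, had 3, 2, 9, 4 and 14 counts in CTL and 13, 4, 7, 2 and 8 counts in CKO libraries. Of the translocon subunits, Sec61a1 was at 232 ± 20.4 and 204 ± 23.7 CPM and Sec61b at 61.8 ± 6.91 and 62.1 ± 2.32 CPM.

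Libraries of 1 genotype differed among themselves. The genes of BiP, GRP94 and their cofactors summed to 2146, 1893, 2043, 1873 and 1791 CPM in CTL 1 to CTL 5 and to 1897, 2087, 2149, 2301 and 1844 CPM in CKO 1 to CKO 5. In CKO 4, 28 of the 38 tested members were above their CKO mean, among them all 10 tested genes with an ERSE or ERSE-II. In CTL 1, 27 of 38 members and 9 of these 10 were above the CTL mean. CTL 1 and CKO 4 had the lowest total counts of their genotypes, 3058690 and 3500215. The genes with at least 0.3 reads per base, members or not, were likewise mostly above the mean there, 1077 of 1322 above the mean in CTL 1 and 951 of 1322 in CKO 4. Of the 6 sensors and transcription factors, 5 were above the mean in CTL 1 and 2 in CKO 4. The 8 tested members with an ERSE had a median log2 fold change of 0.06 between the genotypes, and the 19 tested genes of the whole table with an ERSE had one of 0.07, with 0 called.

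**Figure D4:**
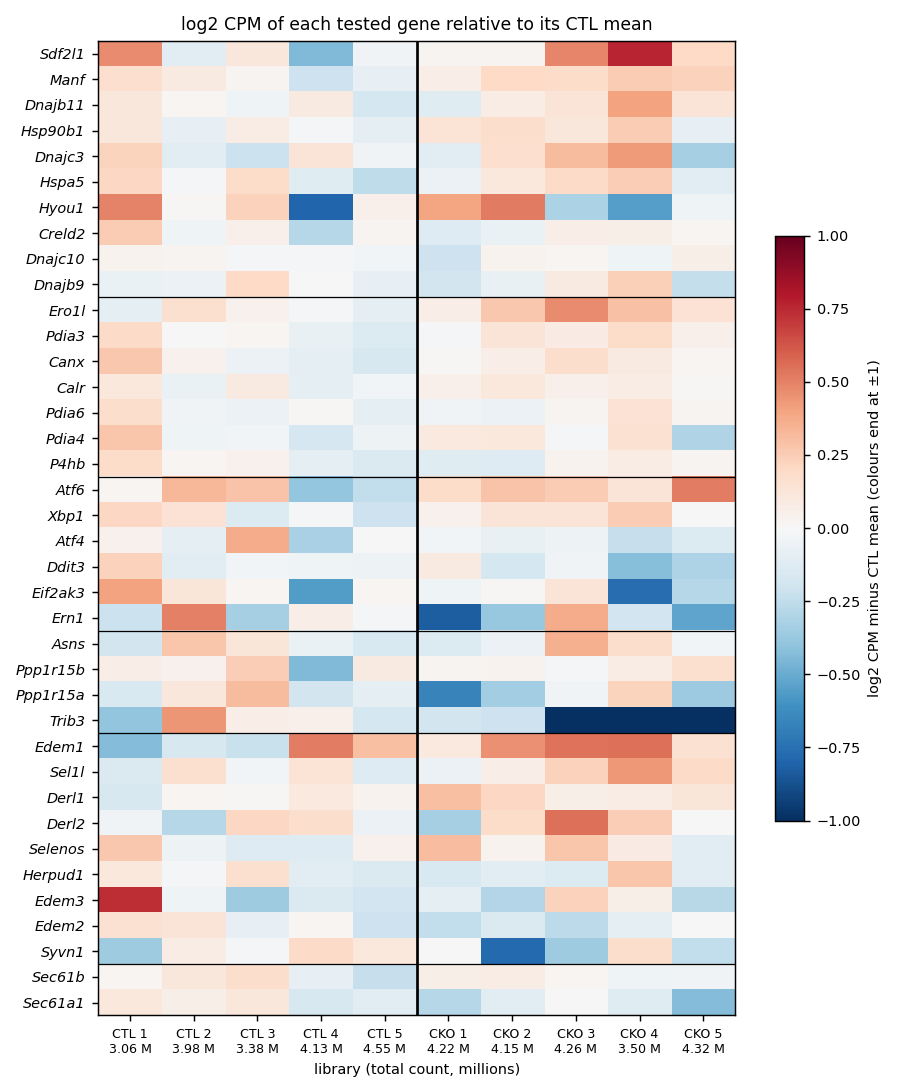
Log2 CPM of the 38 tested genes (rows, by role) in each library (columns, with its total count) relative to the CTL mean of the gene. Red is higher and blue lower, the colours end at 1 on the log2 scale, and the darkest cells are Trib3 in CKO 3, CKO 4 and CKO 5.

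A further 160 genes of the same pathways were examined, of which 152 were tested. None was called by edgeR (0.226% of all genes tested), with 76 fitted higher and 76 lower, 17 had an unadjusted p under 0.05 (12.9% of all genes), and 4 were without overlap (3.33% of all genes). DESeq2's Wald test called 1 of them, Vldlr, and limma-voom called 0. Vldlr, a lipoprotein receptor induced by ATF4, had 51.2, 57.6, 50.3, 83.4 and 84.2 CPM in CTL and 106, 127, 117, 83.2 and 132 CPM in CKO libraries. CKO 4 was the only CKO library within the CTL range. The log2 fold change was 0.79 (± 0.17 standard error, adjusted p = 0.0781 in edgeR and 0.00242 in DESeq2), and 0.61 with the offset (edgeR adjusted p = 0.588). Casp12, a caspase linked to ER stress, had a log2 fold change of 0.26 without overlap between the genotypes. The gap was narrow, from 166.9 CPM in CTL 5 to 167.3 CPM in CKO 3. Cnpy3, an ER cochaperone of GRP94, and Sil1, a nucleotide exchange factor of BiP, had -0.31 and -0.36, likewise without overlap. The nearest libraries were CTL 5 at 93.2 and CKO 2 at 88.6 CPM for Cnpy3. For Sil1 they were CTL 1 at 78.58 and CKO 3 at 78.24 CPM. Stt3a, the catalytic subunit of an oligosaccharyltransferase, had 0.23, and the adjusted p-values of these 4 genes were 0.176, 0.178, 0.185 and 0.237 in that order (edgeR). With the offset for GC content and length their log2 fold changes were smaller, at 0.09, -0.09, -0.20 and 0.06. Of the ATF4 and CHOP targets in this list, Vldlr included, 9 of 26 tested were fitted higher and 17 lower, with a median log2 fold change of -0.10. Of the genes for targeting and translocation, 16 of 22 were fitted higher, with a median of 0.07. Over all tested genes 51.0% were fitted higher. In the remaining groups of this list, 10 of 14 disulfide isomerases and oxidases and 9 of 23 ER chaperones and prolyl isomerases were fitted higher. So were 10 of 22 genes of glycan addition and trimming, 10 of 19 of ER-associated degradation, and 12 of 26 sensors, proteases and regulators.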

How the data were processed

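Per the paper's methods, HISAT2 was used by the authors to map single-ended reads on GRCm38. The deposited values are raw counts of reads for each gene from Rsubread, beside the gene length in bases. The annotation, the use of strand and the treatment of duplicate and multiply mapped reads are not given in the sources used here, so counts of overlapping genes are uncertain. The labels' genotype gave the groups. Counts were analysed with edgeR 4.0.16 in R 4.3.3 (filterByExpr, TMM, robust quasi-likelihood F test, Benjamini-Hochberg adjustment over 14165 genes, called at an adjusted p under 0.05 and a fold change above 20%). Standard errors and 95% intervals were derived from the F statistic. CPM used the TMM-normalized totals, and p-values measure the spread between mice. The members and lists were chosen with earlier results of these data known. Fold changes with errors are given for Cited2, for members called or with an unadjusted p under 0.05, for Hspa5, Xbp1, Atf4 and Ddit3, and for the 5 other pathway genes with the smallest p. Sdf2l1, Ern1, Atf6 and Edem1 were added after their values were seen. Alternatives were DESeq2 1.42.0, its size factors, no filter, at least 10 counts in every library, limma-voom (limma 3.58.1), a replicate block, a GC and length offset, each library left out, and, chosen after seeing the data, the library total as a covariate. The scripts were tested on simulated data.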

Additional observations from a re-analysis of the deposited data

Results flagged for a closer look

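A library was marked where its gap to the nearest of the other 4 libraries of its genotype, as a share of the range, was above Dixon's critical value of 0.71. This was examined in 82 groups of 5 libraries, where chance marks about 1 in 20, and 6 were marked. CTL 1 was the highest CTL library for Pdia4 at 176 CPM, for Ddit3 at 38.8 CPM and for Edem3 at 68.9 CPM, where the next CTL libraries had 143, 32.3 and 39.9 CPM. CTL 3 was the highest for Dnajb9 at 236 CPM, with 206 CPM next. CKO 4 was the highest CKO library for Herpud1 at 187 CPM, with 144 CPM next. The library labelled CKO 3 was the highest CKO library for Cited2 at 120.1 CPM, with 8.30 CPM next.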

How the results depend on the processing

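The count of members called was 0 as reported and under each of the 19 alternative fits and the call rule without a minimum fold. Their median log2 fold change ran from -0.0024 with no filter on low counts to 0.0777 with the library total as a covariate. Leaving out 1 library at a time gave medians from 0.0023 to 0.08, with 0 members and 0 other pathway genes called each time. The count of other pathway genes called was 1 with DESeq2's Wald test and 1 with the library total as a covariate. This gene was Vldlr, with log2 fold changes of 0.79 and 0.64 (adjusted p = 0.00242 and 0.0489). It was not called under the other fits, with edgeR adjusted p = 0.144 with the replicate block and 0.588 with the GC and length offset. With 1 library left out, its edgeR adjusted p ran from 0.0523 to 0.201. With the GC and length offset, 10 of the 38 members turned direction, 6 to lower and 4 to higher. Among them Hspa5 and Atf4 came to log2 fold changes of -0.0129 and 0.0486, and with this offset and the replicate block to -0.0085 and 0.0586. With the offset alone Xbp1 and Ddit3 moved to 0.21 and -0.27, and Atf6 and Edem1 to 0.13 and 0.21. The cause was not tested. Same-numbered CTL and CKO libraries had deviations correlated between -0.0947 and 0.208. The labels do not say whether the numbers pair the mice, and such correlations cannot decide it. With the replicate block the members called were 0 and their median was 0.04. Cited2 was called with limma-voom (log2 fold change -3.99, adjusted p = 0.0346) and without the library labelled CKO 3 (-4.92). Depth limits Chac1 and Derl3, which the main edgeR fit left out, and the slope of counts on depth limits the densest chaperone genes. Over all genes, edgeR called 32, DESeq2 338, edgeR with the offset 8 (13 with the block) and edgeR without 1 library between 8 and 42.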

Other observations

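Ppp1r15a also belongs to the genes induced by tissue handling and cell isolation, and its values were set beside those of other such genes. In CTL 3 it was at 343 CPM, with Fos at 726 and Jun at 748 CPM, the highest of the CTL libraries for all 3 genes. In CKO 4 it was at 321 CPM, with Fos at 656 and Jun at 745 CPM, the highest of the CKO libraries for all 3. Dnajb1, Junb, Egr1 and Ier2 were likewise highest in these libraries. Other genes of the list were not highest in both. Fosb was highest of the CTL libraries in CTL 3 at 215.5 CPM, but was at 134 CPM in CKO 5 and 82.6 CPM in CKO 4. Hsph1 was highest in CTL 1 at 142.5 CPM, against 137 CPM in CTL 3, and in CKO 3 at 136 CPM. Hspa1a was likewise highest of the CTL libraries in CTL 3 at 19.7 CPM, but was at 14.1 CPM in CKO 5 and 0.882 CPM in CKO 4. These values were set side by side after they were seen, and the part of cell isolation was not tested. None of the 8 tested genes of the list was called between the genotypes by edgeR (0.226% of all genes tested). Egr1 came nearest, with a log2 fold change of -0.44 (± 0.10 standard error, edgeR adjusted p = 0.0781). Hsph1 was fitted higher in CKO libraries and the other tested genes of the list lower.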
